A study of Mus musculus with 2 samples.

Results

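The 9 genes described here are C1qa, C1qb, C1qc, Apoe, Vcam1, Axl, Pla2g7, AF251705 and Sirpb1c, which were chosen by name from earlier results of these same bone marrow libraries. All 9 were listed in both libraries, among 7915 genes listed in either. Because the genes were selected on their measured levels in macrophages and monocytes, the levels below are a description and carry no test. Bone marrow cells (BMCs) were taken from the fore- and hindlimbs of 1 WT and 1 S1P Cko mouse of the C57BL6/J strain at postnatal day 21, after collagenase digestion of the crushed bones and lysis of red cells. In the Cko (S1P f/f;Osx1-GFP::Cre), the floxed exon of Mbtps1, which encodes site-1 protease (S1P), was removed by a Cre that the osterix promoter of bone-forming cells drives. The paper proposes that this promoter is also active in blood-forming cells, and reports loss of the exon in sorted Cko neutrophils. Per the study's methods, mice with the Cre alone were controls in an earlier study, to tie the phenotypes to S1P loss. They were not used in this study, so the Cre transgene and the loss of S1P cannot be told apart in these libraries. Cells were captured with a droplet kit that counts the 3′ end of each transcript as unique molecular identifiers (UMIs).

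With 1 library per genotype, no difference between WT and Cko has a replicate check, and every interval below is an exact 95% interval that covers counting error only. The WT library held 6271 cells with a median of 6959 UMIs per barcode, and the Cko library held 3662 cells with a median of 7432. The 2 libraries had 28 barcodes in common. Mbtps1 was at 31.9 UMIs per 1000000 UMIs (CPM) in WT and 31.2 in Cko, which checks nothing, since 3′ tags lie outside the deleted exon. Both libraries were clustered together without the 9 genes, and a cluster received a "-like" name only from markers of that cell type.

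C1qa, C1qb and C1qc encode the chains of C1q, the molecule that starts the classical complement pathway. It also coats dying cells and debris for uptake, and macrophages are its main source. Apoe encodes an apolipoprotein, the protein part of lipoprotein particles, that helps to carry cholesterol out of lipid-loaded phagocytes. Vcam1 is an adhesion molecule that holds integrin-bearing blood cells on macrophages and stromal cells. Axl is a receptor kinase through which phagocytes recognise dying cells by way of Gas6. Pla2g7 inactivates platelet-activating factor and oxidised phospholipids. AF251705 is a receptor of the CD300 type, and Sirpb1c belongs to the signal-regulatory proteins. In bone marrow, macrophages of erythroblastic islands engulf the nuclei that red cell precursors expel, and recycle iron.

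The C1q genes lie next to each other on chromosome 4 of GRCm38, all on the minus strand, within 18.7 kb. In the GENCODE annotation C1qb occupies chr4:136880129-136886187, C1qc chr4:136889804-136893065 and C1qa chr4:136895917-136898803. Apoe (chr7:19696109-19699188) and Axl (chr7:25757273-25788705) are on the minus strand of chromosome 7. Vcam1 (chr3:116109949-116129688) and Sirpb1c (chr3:15795145-15848528) are on the minus strand of chromosome 3, and Pla2g7 (chr17:43568098-43612201) is on the plus strand of chromosome 17. AF251705 was not listed in the annotation under that symbol and is given without a position.

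The bases just before the start of 4 members are shown because C1qb and C1qc were counted together in macrophage-like cells, and Apoe and Sirpb1c together in monocyte-like cells. Apoe was also counted with C1qb and C1qc in macrophage-like cells. Each is read 5′ to 3′ on the minus strand from the RefSeq promoter table (GRCm38.p6), and bases that GENCODE places within the gene were left out. Capitals mark GAGGAA or its reverse complement TTCCTC, the core bound by the myeloid factor PU.1, and TGCTGA or its reverse complement TCAGCA, part of the element bound by MAF factors.
C1qb, chr4:136886201-136886450: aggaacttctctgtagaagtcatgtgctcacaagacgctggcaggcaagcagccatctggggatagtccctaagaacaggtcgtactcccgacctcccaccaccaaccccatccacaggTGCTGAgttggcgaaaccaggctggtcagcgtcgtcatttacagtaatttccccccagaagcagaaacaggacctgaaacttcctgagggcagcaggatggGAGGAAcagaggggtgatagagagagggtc
C1qc, chr4:136893066-136893164: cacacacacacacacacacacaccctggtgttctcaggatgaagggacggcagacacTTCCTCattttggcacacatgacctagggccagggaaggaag
Apoe, chr7:19699189-19699438: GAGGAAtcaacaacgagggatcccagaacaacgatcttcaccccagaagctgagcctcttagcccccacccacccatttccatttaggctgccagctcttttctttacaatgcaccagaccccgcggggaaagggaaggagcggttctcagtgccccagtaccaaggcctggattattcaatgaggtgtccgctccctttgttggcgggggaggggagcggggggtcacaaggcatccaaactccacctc
Sirpb1c, chr3:15848529-15848737: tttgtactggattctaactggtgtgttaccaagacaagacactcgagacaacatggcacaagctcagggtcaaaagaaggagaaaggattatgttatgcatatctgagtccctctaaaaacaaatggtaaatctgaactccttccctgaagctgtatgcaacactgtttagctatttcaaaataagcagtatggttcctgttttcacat
The GAGGAA motif occurred once in the C1qb, C1qc and Apoe stretches and was not found in that of Sirpb1c. It was in 23.3% of 32851 promoters over 250 bases, in 9.91% over 99 bases and in 19.5% over 209 bases, so a match is common. The TGCTGA motif occurred once, in C1qb, and was in 16.1% of promoters over 250 bases. The table held 6 of the 9 members.

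The macrophage-like cells were one cluster of 46 WT and 9 Cko cells, led by Fcna, Hmox1, Sdc3, Maf, Mrc1 and Igf1. All 22 listed macrophage markers in WT, and all 19 in Cko, had a UMI in at least 25% of these cells. Per 10000 UMIs the summed markers lay between 24.9 and 388 in WT macrophage-like cells and between 68.0 and 257 in Cko cells, with medians of 90.1 and 100. In B cell-like cells of WT and Cko the medians were 1.57 and 1.34. In monocyte-like cells they were 9.25 and 9.87, with maxima of 66.2 and 118. In erythroid-like cells they were 8.90 and 6.85, with maxima of 67.5 and 34.5. The ranges of single cells thus overlapped that of macrophage-like cells, except in Cko erythroid-like cells. The cluster was 0.734% of WT cells (0.538 to 0.977) and 0.246% of Cko cells (0.112 to 0.466). Red cell lysis and the number of erythroid-like cells (3601 in WT, 576 in Cko) can set such shares. Of non-erythroid cells it was 1.72% in WT and 0.292% in Cko. No cell of the cluster was called a doublet.

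The C1q level was highest in macrophage-like cells, which held 2447 C1q UMIs in WT and 363 in Cko, against 803 and 304 in all other cells together. C1qa stood at 2210 CPM in WT (2061 to 2368) and 2607 in Cko (2164 to 3116), C1qb at 2148 and 2500, and C1qc at 2320 and 2715. Each chain was found in 45 of the 46 WT cells and in all 9 Cko cells. The 3 chains were counted in nearly equal amounts, since C1qa gave 33.1%, C1qb 32.2% and C1qc 34.7% of C1q UMIs in WT macrophage-like cells, and 33.3%, 32.0% and 34.7% in Cko. Over the 46 WT cells the chains correlated with each other at r = 0.92 to 0.93 on log-normalised values, in cells that share 1 library. The summed C1q UMIs per 10000 nevertheless differed widely between cells, from 0 through a median of 59.8 to 288 in WT and from 19.0 through 50.7 to 206 in Cko. The 2 ranges overlapped almost fully.

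The summed C1q level of macrophage-like cells was 6677 CPM in WT and 7822 in Cko, a ratio of 1.17 (1.05 to 1.31). That ratio did not keep its direction. Hemoglobin transcripts made up at least 1% of UMIs in 34 of the 46 WT cells and in 2 of the 9 Cko cells. The WT cells with hemoglobin held C1q at 5105 CPM (4851 to 5368), and the 12 WT cells with less held it at 13402 (12555 to 14291). The 7 Cko cells with under 1% hemoglobin stood at 8513 CPM (7533 to 9585), below the matched WT cells. With hemoglobin UMIs taken out of the total, the WT cells with hemoglobin were still lower in C1q, at 6932 CPM against 13475. What part red cell material has in this was not tested.

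Apoe, Vcam1 and Axl were detected in nearly every macrophage-like cell. Vcam1 reached 1539 CPM in WT (1415 to 1671) and 2564 in Cko (2124 to 3069), with a UMI in 45 of 46 and 8 of 9 cells. Axl was at 589 CPM in WT and 754 in Cko, a ratio of 1.28 whose interval (0.869 to 1.84) included equality. In all, 40 of 46 WT and 8 of 9 Cko cells held UMIs of all 3 C1q chains together with Apoe, Vcam1 and Axl. Over the WT cells summed C1q correlated with Axl at r = 0.69, with Apoe at 0.66 and with Vcam1 at 0.53. Vcam1 followed Axl (r = 0.67) but not Apoe (r = 0.00).

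Apoe was at 1771 CPM in WT macrophage-like cells (1637 to 1913) and 4698 in Cko cells (4095 to 5364). Per 10000 UMIs the WT cells ran from 0 through a median of 9.61 to 175, and the Cko cells from 2.71 through 27.7 to 96.0, so all Cko cells lay within the WT range. The ratio of 2.65 (2.26 to 3.10) was not seen among cells with under 1% hemoglobin, where Apoe was at 4448 CPM in 12 WT cells (3966 to 4973) and 4584 in 7 Cko cells (3873 to 5388). Apoe was at 1145 CPM in the 34 WT cells with hemoglobin and 4952 in the 2 Cko cells. AF251705 showed the same split in WT, with 64.0 CPM in cells with hemoglobin and 274 in those with less. Vcam1 differed less, with 1461 CPM (1327 to 1605) in WT cells with hemoglobin and 1871 (1564 to 2222) in those with less.

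Pla2g7 gave 11 UMIs in WT macrophage-like cells and 9 in Cko cells, a ratio per UMI of 6.46 with a wide interval (2.37 to 17.2). AF251705 gave 104 CPM in WT and 280 in Cko, with a UMI in 22 of 46 and 7 of 9 cells. Among cells with under 1% hemoglobin AF251705 was at 274 CPM in WT (165 to 427) and 343 in Cko (171 to 614), which overlapped. Sirpb1c was nearly missing from these cells, with 4 UMIs in WT and 1 in Cko. Its UMIs are uncertain in any case, as near-identical members of its family can share reads. Of the 8 members with at least 20 UMIs over these cells, Apoe, Pla2g7 and AF251705 were at least 2-fold higher in Cko, against 13.9% of 2392 genes. The Cko values come from 9 cells, of which 1 held 32.1% of the Apoe UMIs, and the genes were chosen on this contrast.

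**Figure D1:**
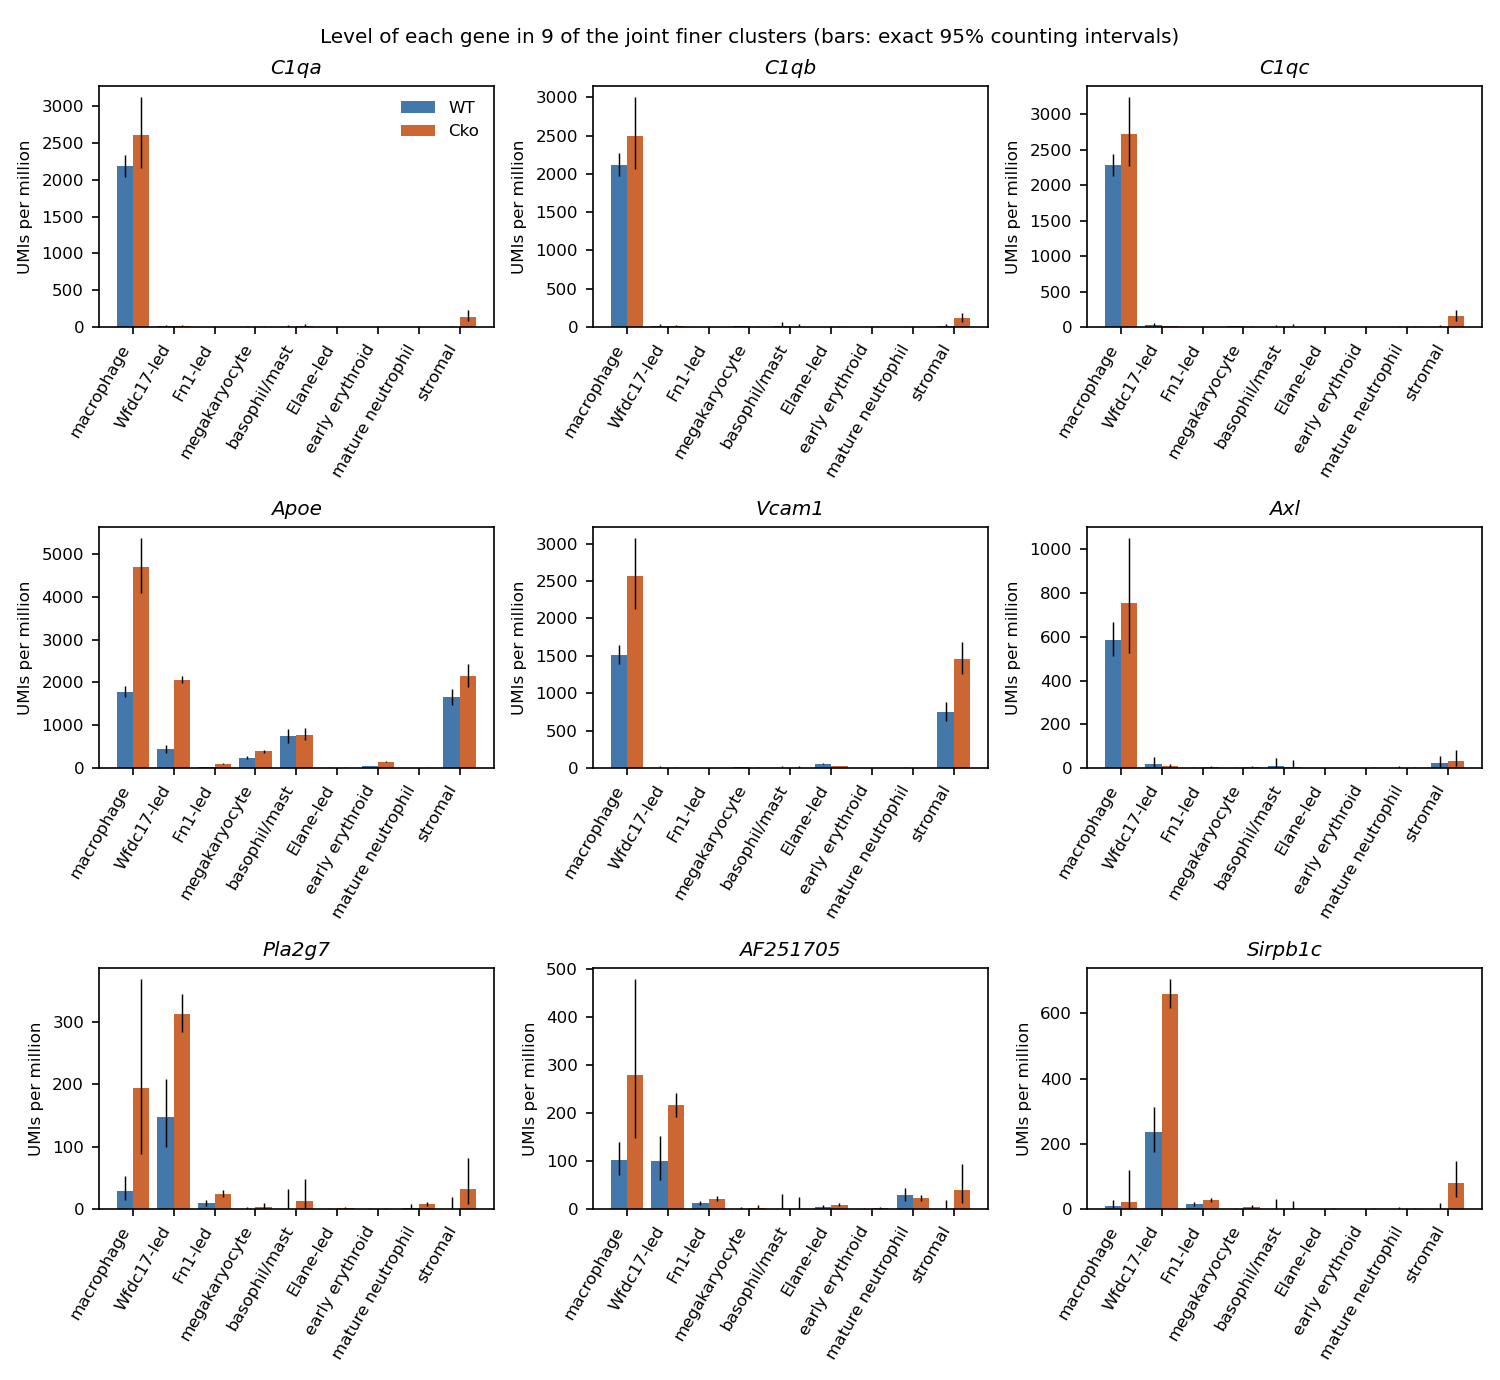
Level of each gene in CPM (y axis, linear, own scale per gene) in 9 of the 27 finer clusters (x axis), with WT in blue and Cko in orange and lines for exact 95% counting intervals. The C1q genes and Axl stand almost alone in macrophage-like cells, Vcam1 stands also in stromal-like cells, Apoe in stromal-like, Wfdc17-led and basophil- and mast-like cells, and Sirpb1c mainly in the Wfdc17-led cells. The C1q bars of Cko stromal-like cells come almost wholly from 1 cell, and the macrophage-like bars hold 47 WT cells at this resolution.

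In the WT and Cko libraries, 8 of the 9 members were at least 2-fold higher in macrophage-like than in monocyte-like cells, against 13.1% of 5743 genes in WT and 25.3% of 5685 in Cko, and Sirpb1c was the exception, at least 2-fold lower in Cko. All 9 members had enough UMIs in both. The monocyte-like class was broad and also held progenitor-, megakaryocyte-, dendritic- and basophil- and mast-like cells, as described below. In WT the ratio was 836 for C1qa (526 to 1418), 476 for Vcam1, 268 for Axl, 21.3 for Apoe, 13.6 for AF251705 and 4.09 for Pla2g7. In Cko the same genes gave 703, 691, 177, 11.6, 6.74 and 3.44. Sirpb1c stood at 10.9 CPM in WT macrophage-like and 11.9 in WT monocyte-like cells, and at 21.5 and 110 CPM in Cko, where 1 UMI stood for the macrophages. The WT value of the broad class hid a difference. Wfdc17-led cells held Sirpb1c at 236 CPM in WT and 660 in Cko, above the macrophage-like level in both libraries. Fn1-led cells held it at 14.5 and 26.9 CPM.

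Outside the macrophage-like cells C1q was low in the large classes. The summed level in WT was 14.1 CPM in erythroid-like, 10.5 in B cell-like and 9.40 in monocyte-like cells, and the monocyte-like value lay within the interval of the B cell-like cells (7.99 to 13.7). In Cko it was 3.80 CPM in erythroid-like cells, 3.83 in B cell-like cells (2.31 to 5.98) and 11.2 in monocyte-like cells (9.17 to 13.6). Neutrophil-like cells held C1q at an interval of 10.6 to 15.7 CPM in WT and at 8.24 CPM in Cko. A C1q UMI was found in 4.60% of WT monocyte-like cells (median of 7483 UMIs per cell) and in 3.36% of WT B cell-like cells (5520 UMIs), which should lack the gene, and in 3.20% and 2.21% in Cko. After each cell was thinned to 3000 UMIs, the shares were 1.89% and 1.81% in WT and 1.71% and 0.552% in Cko. In neutrophil-like cells they were higher than in monocyte-like cells, at 3.44% in WT and 2.15% in Cko. By this measure the WT monocyte-like class as a whole did not stand above the B cell-like cells. The Cko monocyte-like level lay above that of Cko B cell-like cells, and the Wfdc17-led cells described below held 56.3% of its C1q UMIs. A small cluster led by immunoglobulin and antigen-presenting genes, left unnamed, held 76 WT and 74 Cko cells, with C1q at 177 CPM in WT and 4.79 in Cko. In WT 3 of these cells held all chains, with 6, 30 and 46 of the 84 C1q UMIs, so the WT level rests on them. Of the 3 cells 1 was called a doublet and 2 had at least 1% hemoglobin.

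Cells with all 3 C1q chains were 80 of 6271 in WT (1.28%, 1.01 to 1.59) and 21 of 3662 in Cko (0.573%, 0.355 to 0.875). The macrophage-like cluster held 45 of the 80 and 9 of the 21. Another 22 WT cells with all chains were erythroid-like, and hemoglobin reached at least 1% of UMIs in 20 of them. These 22 cells held 4 to 25 C1q UMIs each, with a median of 10.5, whereas the 45 WT macrophage-like cells held 8 to 135. In WT erythroid-like cells the chains stood at 32.2%, 30.9% and 36.9% of C1q UMIs, close to the macrophage-like shares. Over that whole class there were 1.44 Apoe UMIs per C1q UMI, against 0.265 in macrophage-like cells. Early erythroid-like cells led by Mt2 and Mt1 gave 459 of the class's 705 Apoe UMIs but 110 of its 488 C1q UMIs. In Cko 1 stromal-like cell held 50 of the 51 C1q UMIs of its class, so the class level of 406 CPM rests on that cell.

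**Figure D2:**
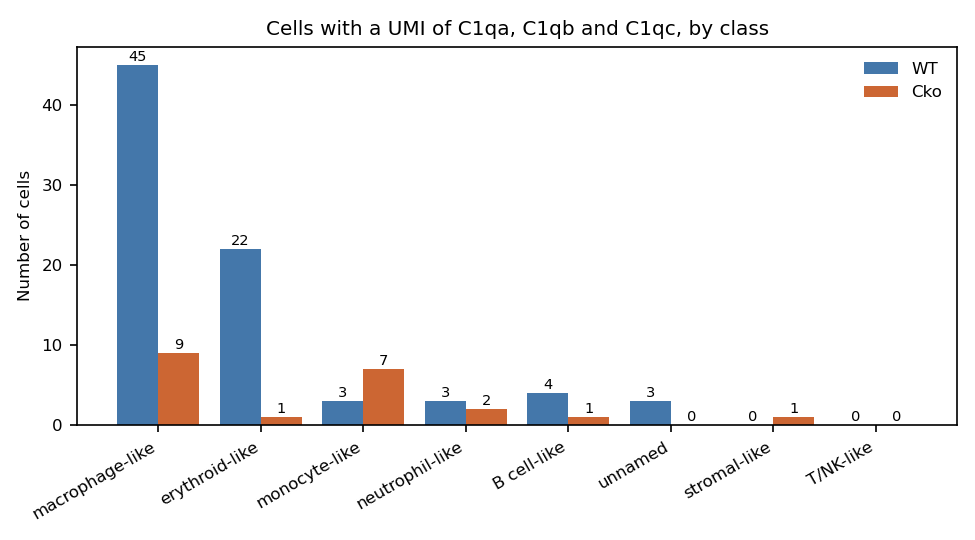
Number of cells (y axis) with at least 1 UMI of C1qa, C1qb and C1qc in each class (x axis), WT in blue and Cko in orange. Of these cells 45 of 80 in WT and 9 of 21 in Cko are macrophage-like, and 22 WT cells are erythroid-like.

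The genes whose level followed summed C1q most closely over the 6271 WT cells were Fcna (r = 0.794), Ms4a7 (0.682), Sdc3 (0.669), Maf (0.651), Spic (0.641), Igf1 (0.614), Mrc1 (0.613), Hmox1 (0.600), Ccr3 (0.544) and Kcnj10 (0.528), out of 6852 genes with at least 50 UMIs. Fcna is a lectin of the complement system, Maf and Spic are transcription factors of resident and iron-recycling macrophages, and Hmox1 breaks down heme. All of the genes listed here except Ccr3 and Kcnj10 were also among the markers used to name the cluster. In Cko, Sdc3, Maf, Igf1 and Mrc1 took the first 4 ranks with r of 0.487, 0.437, 0.423 and 0.405, and Hmox1 was 10th with 0.261. The other 5 were not ranked in Cko, where they were not listed or had fewer UMIs. Among the members, Axl (0.749 in WT and 0.512 in Cko) and Vcam1 (0.632 and 0.398) followed C1q more closely than Apoe (0.497 and 0.212), and Sirpb1c hardly at all (0.0417 and 0.0315).

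Genes with known ties to the members gave a mixed picture between macrophage-like and monocyte-like cells, where 13.1% of all genes were higher and 24.8% lower in WT, and 25.3% and 17.6% in Cko. All 13 tested iron-recycling genes were at least 2-fold higher in WT macrophage-like cells, and 12 of 12 in Cko, with Hmox1 at 969 CPM against 15.0 in WT and 948 against 26.9 in Cko. Some of them had named the cluster, so this is not independent. Of 13 tested complement partners and regulators, 7 were higher and 2 lower in WT, and 6 and 3 in Cko. Cfp, the properdin of the alternative pathway, was at 480 CPM in WT macrophage-like cells and 690 in Cko, against 103 and 99.4 in monocyte-like cells. Of 12 lipoprotein and cholesterol genes 7 were higher in WT and none lower, and 4 of 10 in Cko. Lpl, the lipase that frees fatty acids from lipoproteins, was at 636 and 603 CPM in macrophage-like cells of WT and Cko, and Lrp1, which takes up Apoe particles, at 145 and 259. Of 11 engulfment genes 4 were higher and 2 lower in WT, and 3 and 2 of 9 in Cko. The median log2 difference was 4.25 for the iron genes, 1.16 for complement, 1.61 for lipoprotein and -0.33 for engulfment genes in WT, where it was -0.34 over all genes.

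Among 3 integrin partners of Vcam1, none was higher and 1 lower in WT macrophage-like cells, while 1 was higher and 1 lower in Cko. Of 3 Cd300 genes, Cd300a alone was higher, with 92.8 CPM against 40.5 in WT and 259 against 77.7 in Cko, and 1 was lower in WT. Of 5 genes of the Sirp family and its adaptors, Sirpa was higher in both libraries, with 428 CPM in WT macrophage-like cells and 970 in Cko against 47.3 and 63.0 in monocyte-like cells, and Syk in Cko alone. Of 4 genes that handle platelet-activating factor, Lpcat1 was higher in WT, and Lpcat1 and Pafah1b2 in Cko, where 1 was lower. The 2 Cko calls rest on 3 UMIs of Lpcat1 and 5 of Pafah1b2 in the 9 macrophage-like cells.

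Between Cko and WT, 1.74% of all genes were at least 2-fold higher and 4.21% lower in monocyte-like cells, and the lists differed in their counts. Of 13 complement genes, 4 were higher in Cko, Lrp1 among them, and 1 was lower. Of 10 lipoprotein genes Apoc1, Lrp1, Trem2 and Plin2 were higher. These calls cover a class whose makeup differed, and within its clusters 3 of 10 lipoprotein genes (Apoc1, Soat1 and Plin2) were higher in the Wfdc17-led cells and none in the Fn1-led cells, where 1 was lower. Of the complement genes 1 of 10 was higher and 2 lower in the Wfdc17-led cells, and 1 of 11 was higher in the Fn1-led cells. Of 10 engulfment genes none was higher and 3 were lower, and of 11 iron-recycling genes Trf was higher. No integrin, Cd300, Sirp or platelet-activating factor gene passed in either direction, of 3, 3, 5 and 4 tested. The list medians on the log2 scale were 0.24 for complement, 0.31 for lipoprotein, -0.05 for engulfment and 0.24 for iron genes, where all genes had -0.13. In macrophage-like cells, where 13.9% of all genes were higher in Cko and 12.9% lower, 5 of 13 iron genes were higher and 1 lower, and 2 of 5 engulfment genes were higher and 1 lower. Of 5 complement genes none was higher and 1 lower. There 2 of 7 lipoprotein genes, 2 of 5 Sirp and adaptor genes, 1 of 2 integrin genes, 1 of 3 platelet-activating factor genes and the 1 tested Cd300 gene were higher, and none of these was lower.

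Apoe, Pla2g7, AF251705 and Sirpb1c were higher in monocyte-like cells of Cko than of WT, whereas the C1q genes and Vcam1 were low in both and their intervals included equality. This broad class held 739 WT and 938 Cko cells. Apoe was at 83.1 CPM in WT (76.4 to 90.2) and 406 in Cko (393 to 419), a ratio of 4.88 (4.47 to 5.34). Pla2g7 was at 7.34 and 56.4 CPM, a ratio of 7.68 (5.74 to 10.5), and AF251705 at 7.64 and 41.6 CPM, a ratio of 5.44 (4.07 to 7.42). Sirpb1c had the highest ratio of the 9, 9.21 (7.34 to 11.7), from 11.9 to 110 CPM. The interval of the ratio was 0.867 to 1.66 for summed C1q and 0.652 to 2.06 for Vcam1. Axl was at 2.20 and 4.25 CPM, a ratio of 1.93 (1.04 to 3.77). These 4 of the 9 members were at least 2-fold higher, against 1.74% of 5793 genes, and the members were chosen on this contrast.

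The class was mixed, and its makeup differed between the libraries. At the finer resolution it held Fn1-led monocyte-like cells (294 in WT, 311 in Cko), Wfdc17-led monocyte-like cells that also carried the antigen-presenting genes H2-Aa and Cd74 (49 in WT, 282 in Cko), Ctsg- and Mpo-led progenitor-like cells, megakaryocyte-like cells, Siglech-led dendritic-like cells, and basophil- and mast-like cells. The Wfdc17-led cells were 6.63% of the class in WT and 30.1% in Cko. They carried 16.4% of the class's Apoe UMIs in WT and 76.3% in Cko, and for Sirpb1c 61.7% and 90.3%. If each finer cluster had kept its WT level at the Cko cluster sizes, the class would have stood at 121 CPM for Apoe, 25.1 for Pla2g7, 19.7 for AF251705 and 40.5 for Sirpb1c. Against these values the Cko levels remained 3.35, 2.25, 2.11 and 2.70 times as high.

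Within the Wfdc17-led cells, Apoe was at 440 CPM (355 to 539) in WT and 2062 (1986 to 2139) in Cko, a ratio of 4.69 (3.81 to 5.83). Apoe had a UMI in 21 of 49 WT and 219 of 282 Cko cells. Per 10000 UMIs the WT cells ran from 0 through a median of 0 to 47.5, and the Cko cells from 0 through 12.2 to 179. Sirpb1c was at 236 CPM in WT and 660 in Cko, a ratio of 2.79 (2.10 to 3.79), with a UMI in 24 and 219 cells. The Apoe level of the Cko Wfdc17-led cells was below the Apoe level of Cko macrophage-like cells (4698 CPM). It was also below that of the 12 WT macrophage-like cells with under 1% hemoglobin (4448), and above that of all 46 WT macrophage-like cells (1771).

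Pla2g7 in the Wfdc17-led cells was at 147 CPM in WT and 313 in Cko (ratio 2.13, 1.48 to 3.18), and AF251705 at 99.3 and 217 (ratio 2.18, 1.40 to 3.58). Of the 6 members with at least 20 UMIs there, these 4 were at least 2-fold higher in Cko, against 5.02% of 4403 genes. The median cell held 3704 UMIs in WT and 4552 in Cko. After thinning to 3000 UMIs, Apoe was found in 36.7% and 74.1% of cells, Pla2g7 in 34.7% and 56.7%, AF251705 in 24.5% and 42.6%, and Sirpb1c in 49.0% and 72.0%. The order of WT and Cko was the same for all 4 genes at equal depth. Summed C1q was at 47.3 CPM in WT (22.7 to 87.0) and 42.2 in Cko (32.0 to 54.5). The WT value comes from 10 UMIs, of which 1 cell held 6.

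The Fn1-led cells held the same genes at lower levels. Apoe was at 22.7 CPM in WT (16.7 to 30.2) and 97.5 in Cko (86.8 to 109), a ratio of 4.29 (3.15 to 5.97). Pla2g7 was at 9.18 and 23.7 CPM, AF251705 at 12.1 and 21.2, and Sirpb1c at 14.5 and 26.9. Only 4 members had at least 20 UMIs there, and Apoe and Pla2g7 were at least 2-fold higher in Cko, against 1.36% of 5308 genes. The depth differed here, with a median of 6478 UMIs in WT and 8976 in Cko. At 3000 UMIs per cell, Apoe was found in 5.44% and 16.7% of cells, whereas Sirpb1c was found in 6.46% and 7.40%.

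**Figure D3:**
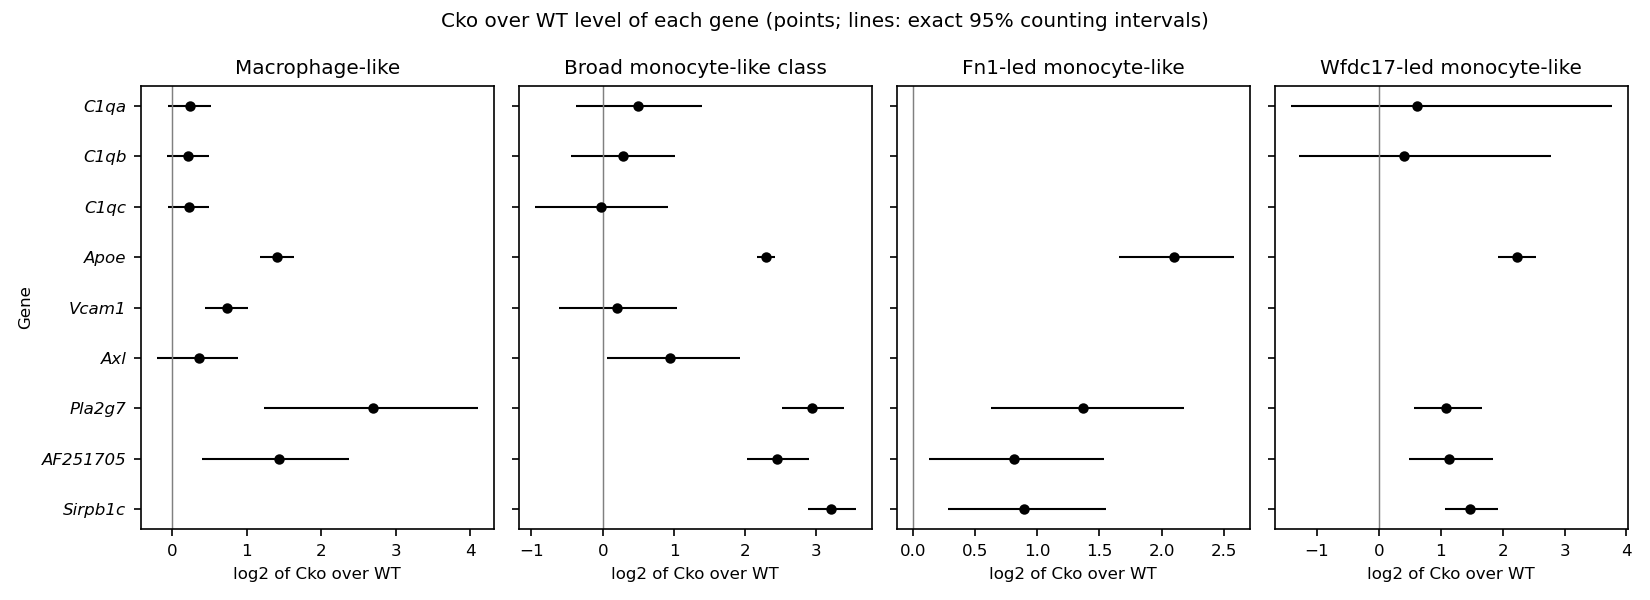
Cko over WT level of each gene on a log2 scale (x axis, own range per panel) in macrophage-like cells, the broad monocyte-like class and its Fn1-led and Wfdc17-led cells, with lines for exact 95% counting intervals. Genes with fewer than 20 UMIs are not drawn. Apoe lies above 0 in all 4 panels, whereas the intervals of C1qa, C1qb and C1qc include 0 in every panel that shows them.

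All 4 genes together were seen more often in Cko than in WT Wfdc17-led cells. All 4 were found in 94 of 282 Cko cells (33.3%, 27.9 to 39.2) and in 1 of 49 WT cells (2.04%, 0.0517 to 10.9). None of the 4 was found in 15 Cko cells (5.32%) and 11 WT cells (22.4%). At 3000 UMIs per cell all 4 were found in 22.7% of Cko and 2.04% of WT cells. In Cko, Apoe and Sirpb1c shared 188 cells, which was 85.8% of the cells with Apoe and 85.8% of those with Sirpb1c. Each gene alone was found in 219 of the 282 cells, so a large overlap follows from these shares alone. Over the 282 Cko cells Apoe correlated with Sirpb1c at r = 0.50, with Pla2g7 at 0.44, with AF251705 at 0.36 and with summed C1q at 0.10. Over the 49 WT cells the first 3 values were 0.31, 0.18 and 0.28. Pla2g7 and Sirpb1c correlated at 0.41 in Cko and at -0.12 in WT.

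Apoe was also higher in the Cko cells that held Sirpb1c. Its level was 2588 CPM (2490 to 2688) in 219 Cko cells with a Sirpb1c UMI and 543 (469 to 625) in 63 cells without, at median depths of 4435 and 4947 UMIs. In WT the levels were 598 CPM (447 to 784) in 24 cells and 329 (236 to 447) in 25. Among cells without a Sirpb1c UMI, Apoe was at 543 CPM in Cko and 329 in WT. Among Fn1-led Cko cells it was at 232 CPM with and 70.2 without a Sirpb1c UMI. The same order held for Pla2g7 in Cko Wfdc17-led cells, with Apoe at 2636 CPM in 193 cells with a Pla2g7 UMI and 929 in 89 without.

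**Figure D4:**
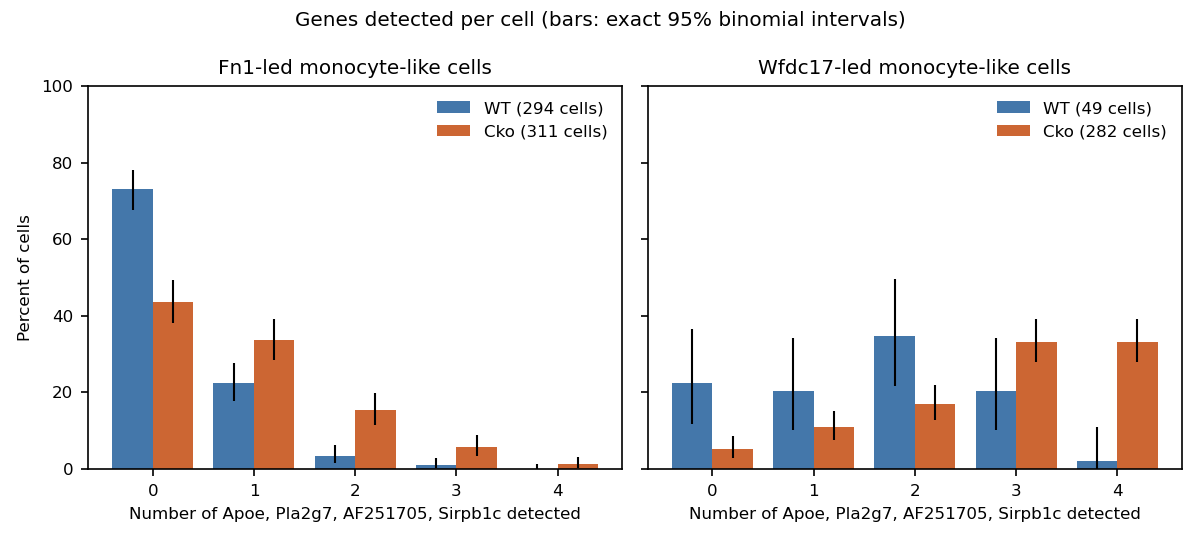
Percent of cells (y axis) in which 0 to 4 of Apoe, Pla2g7, AF251705 and Sirpb1c were detected (x axis), for Fn1-led and Wfdc17-led monocyte-like cells of WT (blue) and Cko (orange), with lines for exact 95% binomial intervals. In the Wfdc17-led cells all 4 were found in 33.3% of Cko and 2.04% of WT cells.

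C1q accompanied Apoe in macrophage-like cells and was rare in the Wfdc17-led cells, where 4 of 49 WT and 13 of 282 Cko cells held a C1q UMI. In macrophage-like cells both were present, with 0.265 Apoe UMIs per C1q UMI in WT and 0.601 in Cko. In the broad monocyte-like class the value was 8.84 in WT and 36.1 in Cko. Megakaryocyte-like cells gave 40.3% of that class's Apoe UMIs in WT and 8.88% in Cko, and basophil- and mast-like cells 15.2% and 3.17%. Of 219 Cko Wfdc17-led cells with Apoe, 8 also had C1qa. All 3 C1q chains were found in 4 of the 282 cells (1.42%, 0.388 to 3.59), with 5 to 17 C1q UMIs each.

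**Figure D5:**
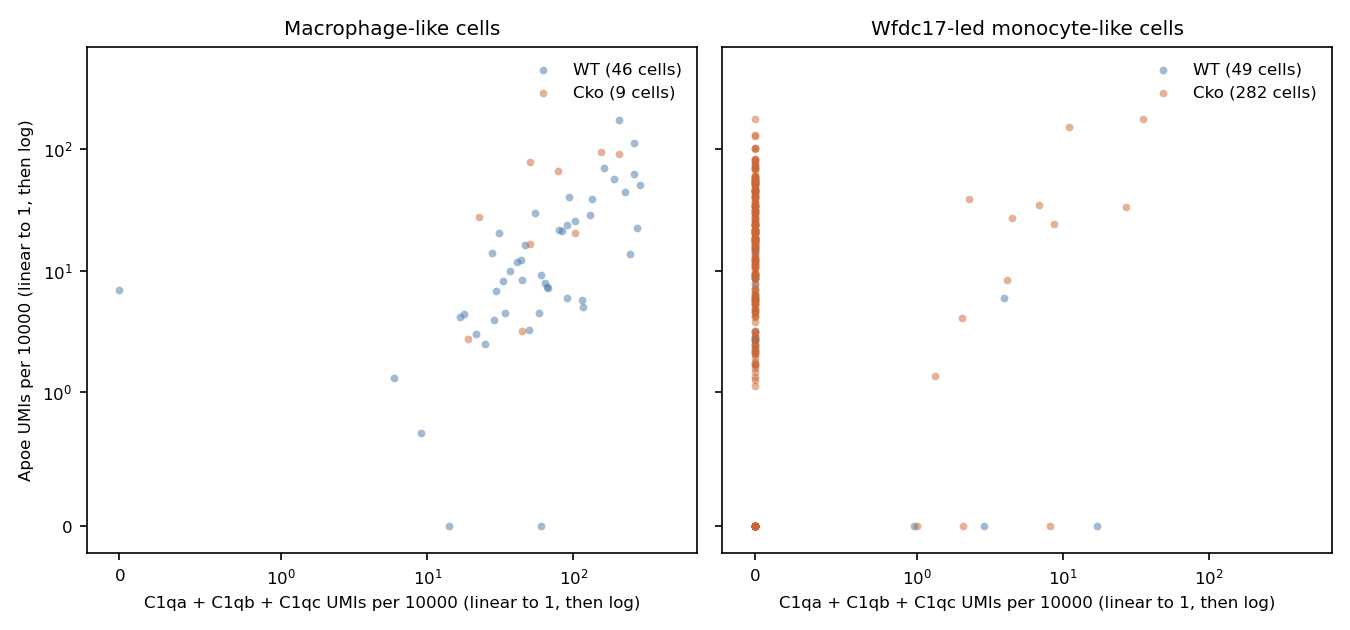
Summed C1qa, C1qb and C1qc UMIs per 10000 (x axis) against Apoe UMIs per 10000 (y axis) for each cell, both axes linear to 1 and logarithmic above, in macrophage-like (left) and Wfdc17-led monocyte-like cells (right), WT in blue and Cko in orange. Macrophage-like cells lie along a rising band (r = 0.66 over 46 WT cells), whereas most Wfdc17-led cells lie at 0 C1q over the whole range of Apoe.

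Apoe was found in further cell types at levels that C1q did not follow. Stromal-like cells held it at 1687 CPM in WT (1506 to 1883) and 2152 in Cko (1903 to 2425), and the WT interval overlapped that of WT macrophage-like cells. Basophil- and mast-like cells came next in WT with 741 CPM (593 to 916) in 17 cells, and held 781 (647 to 935) in 23 Cko cells, which overlapped. Megakaryocyte-like cells held 240 CPM (210 to 273) in WT and 389 (348 to 433) in Cko. Early erythroid-like cells, led by Mt2 and Mt1, held 47.5 CPM in WT and 144 in Cko, a ratio of 3.03 (2.64 to 3.49), with C1q at 11.4 and 1.57 CPM. B cell-like cells held Apoe at 3.70 CPM (2.26 to 5.72) in WT and 7.86 (5.59 to 10.7) in Cko. This low level was also higher in Cko, and its part in the other differences was not tested.

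Vcam1 was shared between macrophage-like and stromal-like cells and was low in monocyte-like cells. Stromal-like cells held it at 761 CPM (641 to 896) in 29 WT cells and 1459 (1255 to 1686) in 18 Cko cells, each below the macrophage-like level of the same library. Elane-led progenitor-like cells held 57.2 CPM in WT and 26.7 in Cko (21.4 to 32.9), a Cko over WT ratio of 0.467. It was found in 32.4% of these WT cells and 21.7% of the Cko cells, and in 13.7% and 9.84% after thinning. In the broad monocyte-like class Vcam1 was at 3.23 and 3.71 CPM.

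Axl was low outside macrophage-like cells, with 21.3 CPM in WT and 31.9 in Cko stromal-like cells from 4 UMIs each, and at most 18.9 CPM in the 2 monocyte-like clusters. AF251705 had a second, lower site in mature neutrophil-like cells led by Mmp8 and Retnlg, with 29.0 CPM (17.7 to 44.7) in 170 WT cells and 23.2 (17.7 to 29.8) in 549 Cko cells, which overlapped. It was not found in the WT stromal-like cells, where the exact interval of a count of 0 reaches 19.6 CPM. Sirpb1c was at 0.370 CPM in WT and 2.02 in Cko B cell-like cells, and Pla2g7 at 1.67 and 2.62. None of the 9 genes was found in the 18 T/NK-like cells of WT, where that interval reaches 31.9 CPM.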

How the data were processed

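The authors deposited UMI counts, unnormalized, for each cell and gene, made with Cell Ranger and GRCm38, per the labels. The Cell Ranger version is not given in the sources used here. A row of totals and a column of sums were dropped. Each library lists only genes with 4 or more UMIs in some cell, so an unlisted gene was not taken as 0.

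Cells with at least 200 genes were kept. Scrublet (scanpy 1.11.5, expected rate 5%) called 1.95% of WT and 1.04% of Cko cells doublets, which were kept. Both libraries were clustered together in Seurat 5.3.0 (R 4.3.3) at resolutions 0.1 and 1.2, without the 9 genes and the Stfa genes. Levels are UMIs per 1000000 (CPM) over the summed cells with exact Poisson intervals, shares have exact binomial (Clopper-Pearson) intervals, and ratios exact conditional intervals, from SciPy 1.17.1. For shares at equal depth each cell was thinned to 3000 UMIs. The ratio intervals alone were tested on simulated data, with Poisson counts that leave out the spread between cells. Genes with at least 20 UMIs over the compared cells were called at 2-fold, with 0.5 added to each count. Named genes were the 9 members, Mbtps1, the 10 genes most like C1q, and the 4 of each list with the most macrophage UMIs. Syk, Apoc1, Soat1, Trem2, Plin2 and Trf were named after their values were seen. The members and lists were chosen with earlier results of these data known.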

Additional observations from a re-analysis of the deposited data

How the results depend on the processing

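No paired analysis was possible because each genotype had 1 library, and leaving out a replicate was not possible either. The macrophage-like share was lower in Cko under all 7 alternatives (log2 from -2.56 to -0.80, reported value -1.58), and so was the share of cells with all C1q chains (-1.74 to -0.50, reported -1.15). The values below are log2 ratios unless given as percent, and the causes were not tested. The Cko over WT ratio of C1q in macrophage-like cells (reported 0.23) reversed to -0.65 without cells of at least 1% hemoglobin, to -0.22 with cells classed singly by marker scores and to -0.24 as a median over cells, and was 0.02 with hemoglobin taken out of the totals. That of Apoe was 0.04 without the hemoglobin cells and 1.10 with single-cell classes. In monocyte-like cells Apoe, Pla2g7, AF251705 and Sirpb1c gave 4.21, 4.92, 4.38 and 5.22 with the libraries clustered separately (where no Cko macrophage cluster formed), and 3.51, 2.36, 2.01 and 2.65 at the finer resolution. With single-cell classes Apoe, Pla2g7 and Sirpb1c gave 3.39, 2.22 and 2.74. Among alternatives chosen after seeing the data, the Fn1-led cells alone gave 2.10, 1.37, 0.81 and 0.89 for the 4 genes. The Wfdc17-led cells alone gave 1.09, 1.13 and 1.48 for Pla2g7, AF251705 and Sirpb1c. Axl there had the reverse sign, -0.79, from 4 WT and 15 Cko UMIs, with an interval (-2.44 to 1.25) that included equality. Macrophage over monocyte C1q was 9.87 in WT and 9.04 in Cko at the finer resolution, 9.96 in WT with single-cell classes and 10.44 without hemoglobin cells. The WT macrophage share was 1.31% with single-cell classes, 0.384% without hemoglobin cells and 1.72% of non-erythroid cells. Cells with all C1q chains were 0.800% of WT without hemoglobin cells and 2.17% of WT non-erythroid cells. In WT and Cko they were 1.95% and 1.23% with 2 of 3 chains enough, 0.973% and 0.355% with 2 UMIs of each, and 0.798% and 0.300% at 3000 UMIs per cell, where a C1q UMI was found in 2.39% and 1.22% of erythroid-like and 1.81% and 0.552% of B cell-like cells. Clustering with the members merged monocytes with progenitors, so monocyte values are not given for it.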
